A study of Arabidopsis thaliana with 18 samples.

Results

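The genes described here are 8 members of the abscisic acid signalling pathway of Arabidopsis thaliana, taken by locus code from a table of 30014 genes. They are the 3 protein kinase genes SnRK2.2 (AT3G50500), SnRK2.3 (AT5G66880) and SnRK2.6 (AT4G33950, also called OST1), and the 5 bZIP transcription factor genes ABF1 (AT1G49720), ABF2 (AT1G45249), ABF3 (AT4G34000), ABF4 (AT3G19290) and AREB3 (AT3G56850). All 8 codes were found in the table, and none was removed by a filter. Transcript levels were measured on 18 Affymetrix AGRONOMICS1 arrays, in 6 groups of 3. NIL-DOG1, which the labels call wild type and which is named for the seed dormancy gene DOG1, was compared with rdo5-1, a mutant of the phosphatase-family gene RDO5. Each genotype was sampled as siliques at 14 days after pollination, as freshly harvested dry seeds, and as seeds imbibed for 6 h. All plants were grown on soil with 16 h of light at 22 °C and 8 h of dark at 16 °C and received no treatment. The labels call the replicates biological without saying whether they came from separate plants or harvests, so the p-values measure the spread between these samples. The line in which rdo5-1 arose and its ecotype are not stated in the labels.

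Abscisic acid keeps seeds dormant and drives the late steps of seed maturation. The hormone binds receptors of the PYR/PYL family, and the bound receptors inhibit clade A type 2C protein phosphatases, which otherwise hold the SnRK2 kinases inactive. The released kinases phosphorylate ABF factors, which bind promoter elements named ABRE and switch on genes of desiccation tolerance. SnRK2.2 and SnRK2.3 are known for their roles in seed dormancy and germination, SnRK2.6 for closing stomata, and plants that lack all 3 kinases are nearly insensitive to the hormone. Kinase activity is set after translation, so a transcript level is not a measure of it.

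Levels are log2 values from the robust multi-array average (RMA), where a difference of 1 is a 2-fold change. The lowest value was 1.89 and the highest 14.67, and the array medians lay between 4.03 and 4.35. Within each group, pairs of arrays had correlations of 0.990 to 0.995 across genes. As a check of the genotype labels, RDO5 was lower on all rdo5-1 arrays than on all NIL-DOG1 arrays of the same stage, with differences of -1.001 (siliques), -0.93 (dry) and -1.34 (imbibed). The storage genes OLEO1, SESA3 and CRA1 lay above percentile 99.9 of all genes in every group, in siliques too. EM6, a late maturation gene, lay at percentile 61.3 in NIL-DOG1 siliques and 69.4 in rdo5-1 siliques, and above percentile 99.9 in seeds. Its SD over 3 arrays was 0.47 in NIL-DOG1 siliques and 1.28 in rdo5-1 siliques, against 0.011 to 0.050 in the seed groups. The silique arrays of a group were thus uneven in this gene, and the cause was not tested. Markers of silique wall and dehiscence zone averaged 5.97 to 6.21 on silique arrays and 3.21 to 3.45 on seed arrays. The silique samples thus carry both embryo and fruit wall transcripts, and in the seed groups each fruit wall marker lay at or below percentile 38.5 of all genes.

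**Figure D1:**
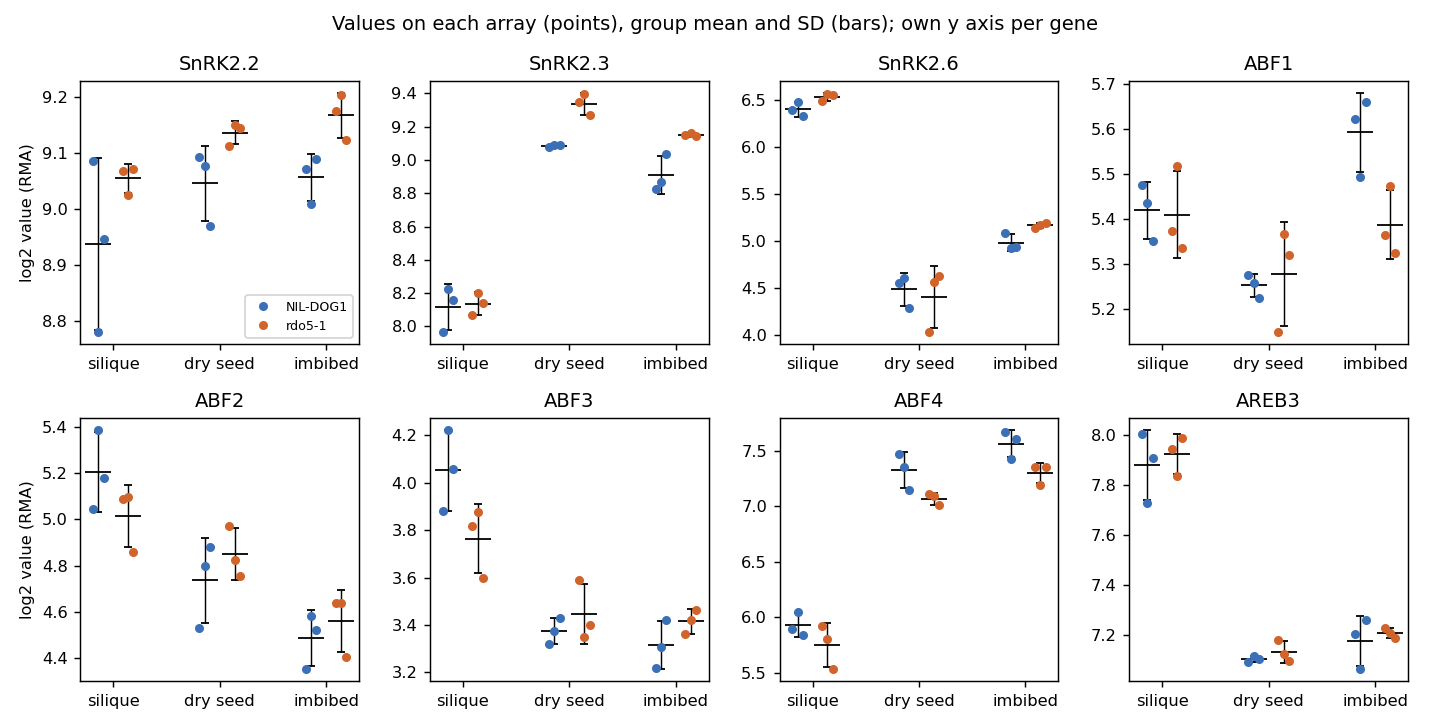
Log2 RMA value of each gene on each of the 18 arrays (y axis, its own range per gene) by stage (x axis) and genotype (colour), with the group mean and SD of 3 arrays as bars. SnRK2.3 and ABF4 sit higher in seeds than in siliques, SnRK2.6 and AREB3 sit lower, and the genotypes lie close together beside these stage differences.

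The first question the design poses is how the transcripts differ between developing fruits and mature seeds. Between siliques and dry seeds the kinase genes went separate ways. SnRK2.3 rose, SnRK2.6 fell and SnRK2.2 did not pass the test. Among the factor genes ABF4 rose and AREB3 and ABF3 fell in both genotypes, while ABF2 fell in NIL-DOG1. In NIL-DOG1 6 of the 8 genes were called at an adjusted p under 0.05, 2 higher and 4 lower, where 54.0% of all genes were called, 27.4% higher and 26.6% lower. In rdo5-1 5 of 8 were called, 2 higher and 3 lower, where 52.9% of all genes were called, 27.2% higher and 25.7% lower. With most of the table called, these counts are no result about the 8 genes as a set, and the values of each gene carry the comparison. The median over the 8 genes was -0.32 in NIL-DOG1 and -0.15 in rdo5-1, against 0.05 and 0.06 over all genes. P-values come from limma and are adjusted over all 30014 genes. In whole siliques and seeds, fewer cells of a type and less RNA per cell cannot be told apart.

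SnRK2.6 showed the widest range of the 8 genes. Its log2 values on the 3 NIL-DOG1 silique arrays were 6.39, 6.48 and 6.33, against 4.56, 4.61 and 4.29 in NIL-DOG1 dry seeds. In rdo5-1 they were 6.48, 6.56 and 6.55 in siliques and 4.03, 4.57 and 4.63 in dry seeds. Every silique array lay above every dry seed array, and the first rdo5-1 dry seed array was the lowest of all. The fall was -1.91 ± 0.12 in NIL-DOG1, which is 3.77-fold (SE, n = 3 per group; adjusted p = 8.6e-10), and -2.12 ± 0.12 in rdo5-1, which is 4.35-fold (limma, adjusted p = 2.2e-10). After imbibition the values were 5.09, 4.93 and 4.94 in NIL-DOG1 and 5.14, 5.17 and 5.195 in rdo5-1. These lay above all dry seed arrays and below all silique arrays. SnRK2.6 thus rose again with imbibition, by 0.50 ± 0.12 in NIL-DOG1 (limma, adjusted p = 0.0067) and by 0.76 ± 0.12 in rdo5-1 (limma, adjusted p = 1.9e-04), or 1.41-fold and 1.69-fold. It was 1 of 2 genes of the 8 called on imbibition in NIL-DOG1 and the only one in rdo5-1, where 24.9% and 28.3% of all genes were called, 14.2% and 16.4% in the higher direction.

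SnRK2.6 is best known from guard cells, and 4 of 5 guard cell markers also fell between siliques and dry seeds in each genotype. In NIL-DOG1 the falls were -4.28 for MYB60, -1.04 for KAT1, -0.53 for FAMA and -0.32 for SLAC1. With arrays centred SLAC1 lost its call in NIL-DOG1 and in rdo5-1 (limma, adjusted p = 0.626 and 0.0511). The mean level of the 5 markers was 4.47 to 4.69 on silique arrays and 3.20 to 3.39 on dry seed arrays. MYB60, a guard cell transcription factor gene, averaged 7.42 in NIL-DOG1 siliques and 3.14 in dry seeds. The kinase gene HT1 (3.40 and 3.12) and SLAC1 (3.56 and 3.24) were at the low end of the scale in both. FAMA and KAT1 were also dim, at percentiles 44.3 and 48.3 of all genes in NIL-DOG1 siliques, against 84.9 for MYB60. All 5 silique wall and dehiscence zone markers also fell in each genotype. Of the 3 seed coat markers measured, 2 fell in NIL-DOG1, and in rdo5-1 2 fell and 1 rose. In NIL-DOG1 the differences were -6.13 for TT10, -0.64 for BAN and 0.23 for TT12, the last not called. TT12 was the marker that rose in rdo5-1 (0.30). The mean level of the 3 was 5.62 to 6.19 on silique arrays and 3.63 to 3.84 on dry seed arrays, a drop that came mainly from TT10. On imbibition none of the guard cell markers was called in either genotype, and their mean level was 3.14 to 3.35 on imbibed seed arrays, while SnRK2.6 rose. The part of these tissues in the stage differences of the 8 genes was not tested.

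SnRK2.3 moved in the opposite direction. Its values were 7.97, 8.23 and 8.16 in NIL-DOG1 siliques and 9.08, 9.09 and 9.09 in NIL-DOG1 dry seeds. In rdo5-1 they were 8.07, 8.20 and 8.14 in siliques and 9.35, 9.40 and 9.27 in dry seeds. All 6 dry seed arrays were above all 6 silique arrays. The rise was 0.97 ± 0.08 in NIL-DOG1, or 1.96-fold (SE, n = 3 per group; limma, adjusted p = 9.3e-09), and 1.20 ± 0.08 in rdo5-1, or 2.297-fold (limma, adjusted p = 5.9e-10). In imbibed seeds the values were 8.82, 8.87 and 9.04 in NIL-DOG1 and 9.15, 9.16 and 9.14 in rdo5-1. Imbibed arrays lay below the dry seed arrays of the same genotype, by -0.18 (95% interval -0.34 to -0.014; limma, adjusted p = 0.114) and -0.19 (95% interval -0.35 to -0.024; limma, adjusted p = 0.0837). After quantile normalization again both differences passed the test, at -0.24 (adjusted p = 0.0444) and -0.26 (adjusted p = 0.0241).

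SnRK2.2, the close relative of SnRK2.3, was nearly level over the 6 groups, with group means from 8.94 to 9.17. The NIL-DOG1 silique arrays, at 9.09, 8.78 and 8.95, spanned more than the differences between most groups. The difference between dry seeds and siliques was 0.11 in NIL-DOG1 (95% interval -0.043 to 0.26; limma, adjusted p = 0.222) and 0.08 in rdo5-1 (95% interval -0.071 to 0.23; adjusted p = 0.373). On imbibition it was 0.010 and 0.03, with 95% intervals of -0.14 to 0.16 and -0.12 to 0.18. The dry seed difference was called in NIL-DOG1 without silique array 1, at 0.18 (limma, adjusted p = 0.0403). It also depended on the scaling. It became 0.36 (adjusted p = 4.3e-04) and 0.31 (adjusted p = 0.0017) with arrays centred on their medians, a step that moves the median of all genes from 0.05 to 0.30 in NIL-DOG1 and from 0.06 to 0.29 in rdo5-1. It became -0.031 and -0.017 after quantile normalization again. Relative to the median of all genes it was 0.06 and 0.017, with and without centring.

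Among the factor genes, ABF4, which encodes an activator of ABRE promoters, changed most. In NIL-DOG1 its values were 5.89, 6.05 and 5.84 in siliques, 7.47, 7.36 and 7.15 in dry seeds, and 7.67, 7.43 and 7.60 in imbibed seeds. In rdo5-1 they were 5.92, 5.80 and 5.53 in siliques, 7.11, 7.09 and 7.01 in dry seeds, and 7.36, 7.20 and 7.36 in imbibed seeds. No silique array reached any seed array. The rise from siliques to dry seeds was 1.40 ± 0.11 in NIL-DOG1 and 1.32 ± 0.11 in rdo5-1 (SE, n = 3 per group), or 2.63-fold and 2.49-fold, with adjusted p = 6.4e-09 and 1.4e-08 in limma. Imbibed seeds differed from dry seeds by 0.24 (95% interval 0.013 to 0.47; limma, adjusted p = 0.126) and 0.23 (95% interval 0.0060 to 0.46; limma, adjusted p = 0.125).

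AREB3, a factor expressed in seeds and known to bind the same promoter element, ran the other way. Its values were 8.01, 7.73 and 7.91 in NIL-DOG1 siliques and 7.95, 7.84 and 7.99 in rdo5-1 siliques. In dry seeds they were 7.09, 7.12 and 7.10 in NIL-DOG1 and 7.18, 7.12 and 7.09 in rdo5-1, all below the silique arrays. The fall was -0.78 ± 0.08 and -0.79 ± 0.08 (SE, n = 3 per group), or 1.71-fold and 1.73-fold, with adjusted p = 1.3e-07 and 1.0e-07 in limma. Imbibed seeds, at 7.06 to 7.26 in NIL-DOG1 and 7.19 to 7.23 in rdo5-1, differed from dry seeds by 0.07 and 0.08 (lower adjusted p = 0.514).

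ABF3, an activator of ABRE promoters known for drought responses of vegetative tissue, was the dimmest of the 8 genes in relation to all genes. It lay at percentile 45.5 of all genes in NIL-DOG1 siliques and between percentiles 29.8 and 34.7 in the seed groups. No detection calls were used here, so whether these values lie above the array background is not known. Its silique values were 3.88, 4.22 and 4.06 in NIL-DOG1 and 3.82, 3.88 and 3.60 in rdo5-1. The dry seed values were 3.32, 3.38 and 3.43 in NIL-DOG1 and 3.59, 3.35 and 3.40 in rdo5-1, so that arrays did not overlap between stages within a genotype. It fell by 0.68 in NIL-DOG1 (SE 0.10; limma, adjusted p = 1.3e-05) and by 0.32 in rdo5-1 (SE 0.10; limma, adjusted p = 0.0111). The rdo5-1 call was lost with arrays centred (-0.091; adjusted p = 0.421), without the second rdo5-1 silique array (-0.26; adjusted p = 0.0562) and without the second rdo5-1 dry seed array (-0.27; adjusted p = 0.0531). On imbibition ABF3 differed by -0.059 and -0.032 (limma, adjusted p = 0.751 and 0.851).

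ABF2, another activator of this group, stepped down over the stages in group mean. In NIL-DOG1 the means were 5.20 ± 0.17 in siliques, 4.74 ± 0.18 in dry seeds and 4.49 ± 0.12 after imbibition (SD, n = 3 each). In rdo5-1 they were 5.02 ± 0.13, 4.85 ± 0.11 and 4.56 ± 0.14. ABF2 fell between siliques and dry seeds in NIL-DOG1, by 0.47 on the log2 scale (limma, adjusted p = 0.0023), but not past the threshold after quantile normalization again (-0.13; adjusted p = 0.392) or centring (-0.21; adjusted p = 0.0970). In rdo5-1 the difference was -0.16 (95% interval -0.41 to 0.08; limma, adjusted p = 0.255), and its sign changed under both scalings, to 0.16 and 0.06. Imbibed seeds differed from dry seeds by -0.25 in NIL-DOG1 (limma, adjusted p = 0.141) and -0.29 in rdo5-1 (limma, adjusted p = 0.0748). The first of these passed when array 1 of NIL-DOG1 dry seeds was left out (-0.35; adjusted p = 0.0450), and the other one with array weights (-0.30; adjusted p = 0.0444).

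ABF1, the remaining ABF gene, rose on imbibition in NIL-DOG1. Its dry seed values there were 5.28, 5.26 and 5.23, and its imbibed seed values were 5.62, 5.49 and 5.66. The groups did not overlap, and the rise was 0.34 ± 0.08, or 1.26-fold (SE, n = 3 per group; limma, adjusted p = 0.0031). In rdo5-1 the values were 5.15, 5.37 and 5.32 in dry seeds and 5.36, 5.47 and 5.33 in imbibed seeds, which overlap. There the difference was 0.11 (95% interval -0.053 to 0.27; limma, adjusted p = 0.333). The test of the difference between the genotypes gave -0.23 (95% interval -0.46 to 0.00036; limma, adjusted p = 0.773), so the imbibition responses are not shown to differ. Between siliques and dry seeds ABF1 differed by -0.17 and -0.13 (limma, adjusted p = 0.0792 and 0.168). The sign of both turned under each scaling, and the rdo5-1 difference was called after quantile normalization again, at 0.20 (adjusted p = 0.0341).

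**Figure D2:**
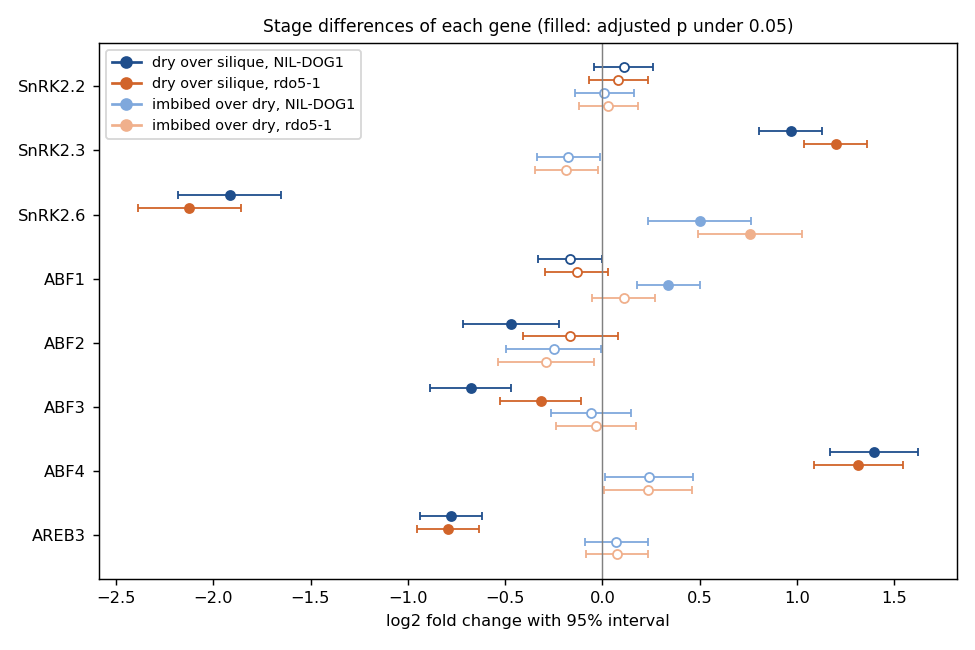
Log2 fold change of each gene (x axis, with the 95% interval of the fitted difference) for dry seeds over siliques and imbibed over dry seeds in each genotype (colour), with filled points where the adjusted p is under 0.05. SnRK2.3 and ABF4 lie to the right and SnRK2.6, ABF3 and AREB3 to the left for dry seeds over siliques, and SnRK2.6 lies to the right for imbibed over dry seeds in both genotypes.

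Each gene was also ordered by its 6 group means, calling neighbours apart where their arrays did not overlap. For SnRK2.3 the order from high to low was rdo5-1 dry, rdo5-1 imbibed, NIL-DOG1 dry, NIL-DOG1 imbibed and then both silique groups, and all neighbours except the silique groups were apart. For SnRK2.6 it was both silique groups, both imbibed groups and both dry groups, and only the dry groups overlapped. For ABF4 the seed groups stood above the silique groups, and NIL-DOG1 imbibed, NIL-DOG1 dry and rdo5-1 imbibed seeds overlapped as neighbours. For AREB3 only the step between siliques and seeds was free of overlap. For ABF3 the steps from NIL-DOG1 siliques to rdo5-1 siliques and on to the seed groups were apart, and the 4 seed groups overlapped as neighbours. For ABF1 only the step from NIL-DOG1 imbibed seeds, the highest mean, to NIL-DOG1 siliques was apart, and 1 rdo5-1 silique array (5.52) lay within the range of the former. For SnRK2.2 only the step from rdo5-1 dry to NIL-DOG1 imbibed seeds was apart. For ABF2 each group overlapped with the next.

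The second question is whether loss of RDO5 function goes with changed transcript levels of the kinases or factors. None of the 8 genes passed the limma test between rdo5-1 and NIL-DOG1 at any stage. The count was 0 of 8 at each of the 3 stages, where, from siliques to imbibed seeds, 0.200%, 0.137% and 0.633% of all genes were called in limma, and it was 0 under every one of the 25 alternatives run. At these background shares a count of 0 among 8 genes is not a result about the genes. At an unadjusted p under 0.05 in limma, 1 gene was found in siliques (ABF3), 2 in dry seeds (SnRK2.3 and ABF4) and 3 on imbibed arrays (SnRK2.3, ABF1 and ABF4), where 8.89%, 8.34% and 8.31% of all genes were at such a p. The median over the 8 genes was 0.0044, 0.05 and 0.09 at the 3 stages, against 0.0017, 0.0015 and -0.0031 over all genes.

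The fitted 95% intervals, each for 1 difference taken alone, describe how large a genotype difference could be. The widest differences were -0.29 for ABF3 in siliques, -0.26 for ABF4 in dry seeds and -0.26 for ABF4 after imbibition. That of ABF3 had an adjusted p of 0.371 in limma and ranged from -0.37 to -0.20 over the 25 alternatives. SnRK2.3 differed by 0.25 ± 0.08 in dry seeds (SE, n = 3 per group; 95% interval 0.09 to 0.41; limma, adjusted p = 0.316) and by 0.24 ± 0.08 in imbibed seeds (95% interval 0.08 to 0.40; limma, adjusted p = 0.262). All 3 rdo5-1 arrays were above all 3 NIL-DOG1 arrays at both of these stages. In siliques its difference was 0.019 (95% interval -0.14 to 0.18).

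ABF4 was lower on all rdo5-1 arrays than on all NIL-DOG1 arrays in dry seeds and in imbibed seeds. The differences were -0.26 ± 0.11 in dry seeds (SE, n = 3 per group; 95% interval -0.48 to -0.030; limma, adjusted p = 0.529) and -0.26 ± 0.11 in imbibed seeds (95% interval -0.49 to -0.037; limma, adjusted p = 0.487). In siliques the difference was -0.18 with overlapping arrays (95% interval -0.40 to 0.05; limma, adjusted p = 0.698). Over the 25 alternatives the ABF4 difference ranged from -0.35 to -0.18 in dry seeds and from -0.33 to -0.21 in imbibed seeds, and it was called in none.

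In imbibed seeds all 3 kinase genes had rdo5-1 arrays above the NIL-DOG1 arrays. The differences were 0.11 for SnRK2.2 (95% interval -0.042 to 0.26), 0.24 for SnRK2.3 and 0.18 for SnRK2.6 (95% interval -0.082 to 0.45), and the lowest adjusted p of the 3 was 0.262. ABF1 was lower there on all rdo5-1 arrays, by -0.20 (95% interval -0.37 to -0.042; limma, adjusted p = 0.405). With ABF4 this made 5 of 8 genes whose arrays did not overlap between genotypes in imbibed seeds, where 15.5% of all genes were apart. The numbers were 3 of 8 in dry seeds (SnRK2.2, SnRK2.3 and ABF4), where 14.7% of all genes were apart, and 2 of 8 in siliques (SnRK2.6 and ABF3), where 12.5% were.

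For ABF2 and AREB3 the arrays of the genotypes overlapped at every stage. The AREB3 differences were 0.04, 0.029 and 0.03 from siliques to imbibed seeds, and the lowest and highest bounds of their 95% intervals were -0.13 and 0.20. The ABF2 intervals were wider, from -0.43 to 0.06 in siliques, -0.13 to 0.36 in dry seeds and -0.17 to 0.32 after imbibition.

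**Figure D3:**
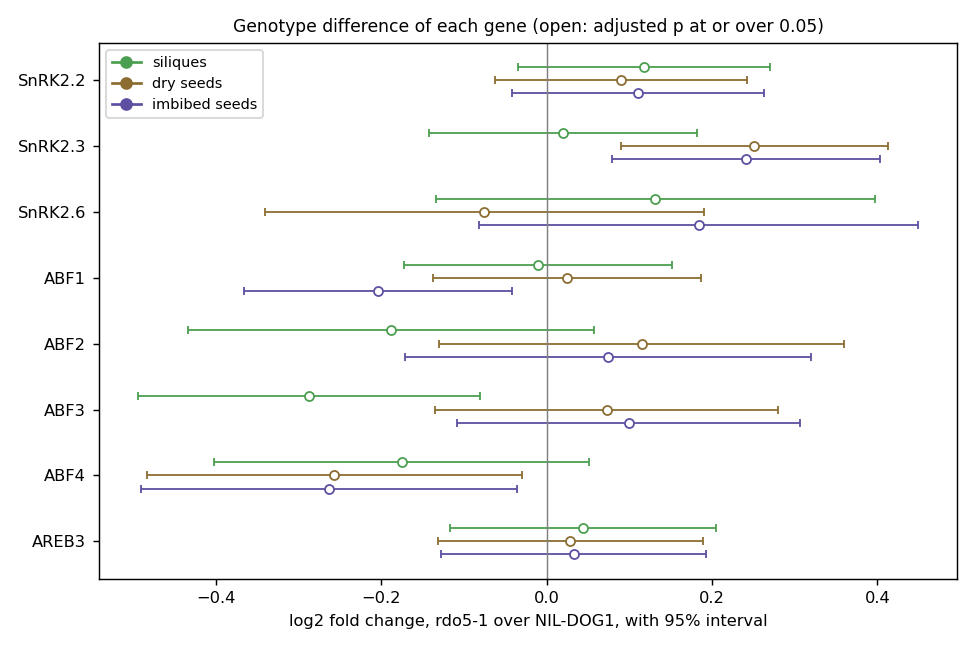
Log2 fold change of rdo5-1 over NIL-DOG1 for each gene (x axis, with the 95% interval of the fitted difference) at the 3 stages (colour), open points marking an adjusted p of at least 0.05. All points are open, and the differences lie between -0.29 and 0.25.

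No gene of the 8 passed the test for a stage response that differs between genotypes. The difference of the genotype effect between dry seeds and siliques was called for 0 of 8 genes in limma, where 0.04998% of all genes were called. At an unadjusted p under 0.05 there were 2 of 8 genes, ABF3 and SnRK2.3, and 7.34% of all genes. The difference was 0.36 for ABF3 (95% interval 0.07 to 0.65; limma, adjusted p = 0.583) and 0.23 for SnRK2.3 (95% interval 0.0030 to 0.46; limma, adjusted p = 0.676). Between imbibed and dry seeds 0 of 8 were called in limma, where 0.0200% of all genes were called, and 0 of 8 were at an unadjusted p under 0.05, where 6.49% of all genes were.

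The 8 genes did not share one pattern. Over the 18 arrays, which fall into 3 stages, Pearson correlations between pairs ran from -0.95 for SnRK2.3 and AREB3 to 0.94 for SnRK2.6 and AREB3. ABF4 correlated at 0.87 with SnRK2.3 and at -0.87 with SnRK2.6. The kinase genes SnRK2.3 and SnRK2.6 correlated at -0.94 with each other. SnRK2.3, SnRK2.6, ABF4 and AREB3, which have the widest ranges of group means, each resembled many genes of the table. AREB3 had 2479 genes at a correlation over 0.95, ABF4 had 1312, SnRK2.3 had 930, SnRK2.6 had 868 and ABF3 had 2, while SnRK2.2, ABF1 and ABF2 had 0.

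The closest genes over the 18 arrays were, for AREB3, DWF1 (0.991), which encodes an enzyme of brassinosteroid synthesis, the plastid pyruvate dehydrogenase gene PDH-E1 ALPHA (0.990) and AT5G10160 (0.990). For ABF4 they were the chromatin remodeller gene CHR11 (0.987), HON5 (0.986) and the splicing factor gene SR30 (0.986). SnRK2.3 was closest to the homeobox gene HB22 (0.982), the gibberellin synthesis gene KAO2 (0.981) and AT4G21110 (0.981). SnRK2.6 was closest to AT3G27210 (0.990), EMB3136 (0.988) and CRB (0.988). The closest genes were AT5G40451 (0.955), AT3G06070 (0.955) and AT3G55910 (0.947) for ABF3, and AT5G01210 (0.930), UBC5 (0.926) and YSL1 (0.915) for ABF2. For ABF1 they were AT1G68820 (0.849), AT4G36648 (0.817) and SMO2-1 (0.814), and for SnRK2.2 the calcium sensor gene CBL3 (0.829), AT3G23570 (0.823) and AT1G49520 (0.815).

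The rest of the pathway was read from lists of 7 gene groups. The named genes are the called ones of smallest adjusted p, unless said otherwise. The counts per list stand beside the shares of all genes called above. On imbibition 24.9% of all genes were called in NIL-DOG1 and 28.3% in rdo5-1. Those called higher were 14.2% and 16.4%, and the rest of the called genes were lower. At the receptor step, 13 of 14 receptor genes were called between siliques and NIL-DOG1 dry seeds, 6 higher and 7 lower. PYL11 (6.15) and PYL12 (3.78) were among those that rose and PYL6 (-3.40) and PYL8 (-3.38) among those that fell. Of the 9 clade A phosphatase genes 8 rose and 1 fell. AHG1, which acts in seeds and binds DOG1, rose by 4.91 ± 0.10 and HAI3 by 4.40 ± 0.12, while HAI1 changed by -2.78 ± 0.12 (SE, n = 3 per group). The median of the 9 was 0.93, against 0.05 over all genes. On imbibition in NIL-DOG1 6 phosphatase genes fell, ABI1 by 1.99 and ABI2 by 0.90 among them, and 1 rose (HAI3, 1.81), against a median of all genes of -0.016.

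The other 7 SnRK2 genes encode kinases that the hormone activates weakly or not at all. Between siliques and NIL-DOG1 dry seeds 5 fell and 1 rose. SnRK2.5 (-2.48), SnRK2.1 (-2.36) and SnRK2.7 (-1.78) fell, and SnRK2.10 rose by 2.17. On imbibition 3 rose in each genotype and 0 fell. SnRK2.8 rose by 1.86 in NIL-DOG1 and 2.72 in rdo5-1, SnRK2.1 by 1.01 and 0.999, and SnRK2.10 by 0.39 and 0.41. The list of other bZIP factors of the same group held 6 genes, without ABI5. DPBF2 and EEL, both known from seeds, fell between siliques and NIL-DOG1 dry seeds (-3.48 and -1.77). They fell again on imbibition (-0.80 and -0.35), and the other 4 were not called.

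Most genes of a list of abscisic acid and ABRE targets rose towards dry seeds. Whether they depend on the factors described here was not tested. Of 14 abscisic acid and ABRE target genes 9 rose and 4 fell between siliques and dry seeds in both genotypes. RD29B (5.30), LEA4-5 (3.96), TSPO (3.12) and RD26 (2.91) were the called rises of smallest adjusted p in NIL-DOG1, and EM6 rose by 8.90. The 4 that fell there, named after their values were seen, were RD20 (-5.76), KIN2 (-4.31), COR47 (-3.44) and KIN1 (-2.49). KIN1 and KIN2 are neighbouring genes of similar sequence whose signals may not be separate. On imbibition 4 target genes fell in each genotype and 0 rose. RD26 fell by 2.46 in NIL-DOG1 and by 2.58 in rdo5-1, RD20 by 1.62 and 1.36, and RD29B by 0.39 and 0.61. The fourth was RD29A, at -0.39 and -0.40. With arrays centred, RD29A in both genotypes and RD29B in NIL-DOG1 lost their calls (highest adjusted p = 0.0719), and RD29A and RD29B in NIL-DOG1 both lost theirs without any 1 of the 6 arrays compared (highest adjusted p = 0.102 and 0.142). RD29B in NIL-DOG1 also lost its call without NIL-DOG1 silique array 3, rdo5-1 silique array 1, or rdo5-1 dry seed array 2 or 3 (limma, highest adjusted p = 0.0522). Of the 4 falls in NIL-DOG1, those of RD26 and RD20 kept their calls under all 25 alternatives. RD29A in rdo5-1 lost its call without dry seed array 2 or 3 or imbibed array 2 (highest adjusted p = 0.149). RD20 in rdo5-1 lost its call without dry seed array 2 or imbibed array 3 (-1.01 and -1.02; adjusted p = 0.0560 and 0.0555), and with the 6 arrays fitted alone (-1.36; adjusted p = 0.0831).

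Of 5 regulators of factor protein level, 4 rose and 0 fell between siliques and NIL-DOG1 dry seeds. These were the repressor genes AFP2 (4.29-fold; the others as log2 differences), AFP1 (1.96) and AFP3 (0.41) and the ubiquitin ligase gene KEG (0.59). On imbibition AFP3 (-0.55), AFP4 (-0.53) and AFP2 (-0.31) fell in NIL-DOG1. Of 5 other kinase substrates 4 were analysed here, and between siliques and NIL-DOG1 dry seeds AKS1 (1.12) and the chromatin remodeller gene BRM (0.49) rose. The guard cell channel genes KAT1 (-1.04) and SLAC1 (-0.32) fell there, the second not past the threshold with arrays centred (-0.063; adjusted p = 0.626). None of the 4 was called on imbibition.

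Between genotypes, calls in these lists were found in imbibed seeds, where 0.633% of all genes were called, and not in the other stages. SnRK2.8 was 0.81 ± 0.17 higher in rdo5-1, with means of 6.93 and 6.12 (limma, adjusted p = 0.0396), and AFP3 was lower, at -0.42 ± 0.09, with means of 5.74 and 6.15 (limma, adjusted p = 0.0347; SE, n = 3 per group). The SnRK2.8 call was lost after quantile normalization again (0.74; adjusted p = 0.0968) and without any 1 of the 6 imbibed seed arrays (highest adjusted p = 0.164, with rdo5-1 array 3 left out). SnRK2.8 was also not called without any 1 of the 3 NIL-DOG1 silique arrays, or without dry seed array 1 of either genotype (limma, highest adjusted p = 0.0579). Its genotype effect in imbibed seeds minus that in dry seeds was 0.86 (95% interval 0.36 to 1.37; limma, adjusted p = 0.420), so the stages are not shown to differ. The AFP3 call was lost with the 6 arrays fitted alone (adjusted p = 0.157) and without any 1 of 5 of them (highest adjusted p = 0.192, with rdo5-1 array 1 left out), and its difference between the stages was -0.36 (limma, adjusted p = 0.553). AFP3 was also not called without rdo5-1 dry seed array 1 (limma, adjusted p = 0.0504). Beside these, the receptor genes PYR1 and PYL4 were higher and the phosphatase gene HAI1 was lower, so that 2 of 14 receptor genes and 1 of 9 phosphatase genes were called. HAI1 lost its call with array 1 or 3 of rdo5-1 or array 3 of NIL-DOG1 imbibed seeds left out (highest adjusted p = 0.0715), and both HAI1 and PYL4 lost theirs with the 6 arrays fitted alone (adjusted p = 0.0629 and 0.0696). None of the 14 target genes, the 6 other bZIP genes or the 4 substrates was called, and the target gene median was -0.014 (range -0.12 to 0.59). In siliques and in dry seeds 0 genes of these 7 lists were called, where 0.200% and 0.137% of all genes were called. At these shares a count of 0 is not a result about the lists.

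**Figure D4:**
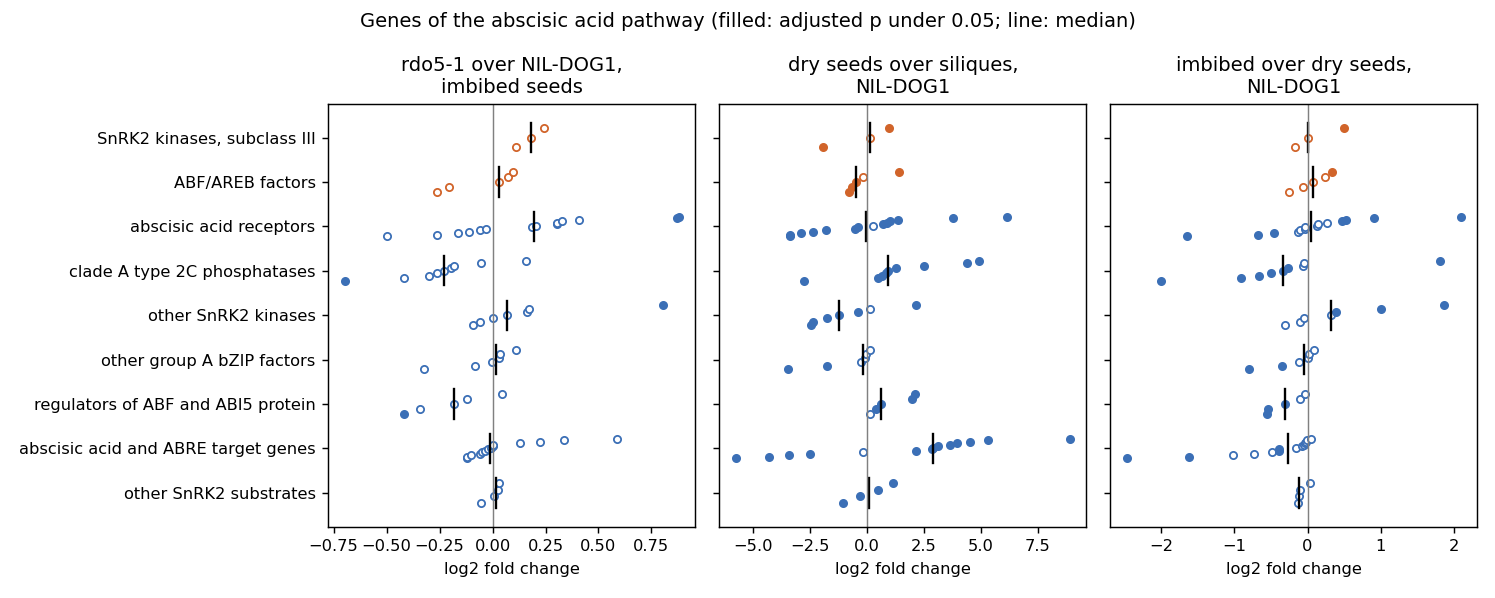
Log2 fold change of the genes of the pathway (x axis, a separate range per panel) by list (rows; the kinases and factors in orange, the other lists in blue), for rdo5-1 over NIL-DOG1 in imbibed seeds, and for dry seeds over siliques and imbibed over dry seeds in NIL-DOG1. Filled points have an adjusted p under 0.05 and black lines are list medians: 9 target genes rise and 4 fall between siliques and dry seeds, and the kinase and factor points are all open between genotypes.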

How the data were processed

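Total RNA of 18 samples was hybridised to 1 array each. The deposited log2 values, 1 per gene and array, were made by the authors with RMA, per the submitters' processing notes; which RMA version and probe sets were used, and whether normalization ran over all arrays jointly, is not stated in those notes. Isoforms of a gene share 1 value. Symbols came from a TAIR10.1 gene table, which matched 29464 of the 30014 codes, and no coordinates or sequences are printed. The model, run in limma 3.58.1 under R 4.3.3, had 6 group means over the 18 arrays (12 residual degrees of freedom), without a filter. P-values were adjusted by Benjamini-Hochberg over all genes, with calls at an adjusted p under 0.05. The fit was tested on simulated data with log2 changes of 1 and 2. That test does not cover differences as small as those of the 8 genes between genotypes. The genes, lists and comparisons were chosen with earlier results of these data known. Genes named beyond the 8 were up to 4 called genes per list and comparison by adjusted p, not all of which are printed, markers, and the 3 most correlated genes per member. Alternatives were 2 scalings, leaving out the 30% dimmest genes, trend and robust settings, array weights, the compared arrays alone, the replicate number as a block, and leaving out each array. Same-numbered arrays of different groups deviated together at over 0.1 in 1 of 45 pairs (median -0.0020), so the numbers were not taken to pair samples. That pair was array 2 of NIL-DOG1 siliques and of rdo5-1 siliques (0.168), and for arrays 1 and 3 of these groups the values were 0.0018 and 0.084. Array number limits the precision.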

Additional observations from a re-analysis of the deposited data

Results flagged for a closer look

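The genotype effect on the receptor gene PYR1 differed between imbibed and dry seeds by 0.859 ± 0.133 (SE; limma, adjusted p = 0.0484), a difference between stages that passed its own test. It lost that call with arrays centred (0.88; adjusted p = 0.0554), with the 12 arrays compared fitted alone (adjusted p = 0.162) and without any 1 of those 12 arrays, at adjusted p-values up to 0.160. The call was also lost without any 1 of the NIL-DOG1 silique arrays, or without rdo5-1 silique array 3 (limma, highest adjusted p = 0.0894). None of the 8 kinase and factor genes was called for such a difference, where 0.0200% of all genes were called.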

How the results depend on the processing

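Each of the 72 differences of the 8 genes (9 comparisons each) was computed under 25 alternatives. Of 14 called differences, 12 kept their call and direction under all 25; the others were ABF2 in NIL-DOG1 and ABF3 in rdo5-1, both between siliques and dry seeds. Of 58 differences not called, 51 were called under no alternative. ABF1 between siliques and dry seeds in rdo5-1 was called in the opposite direction after quantile normalization again (0.20; adjusted p = 0.0341); the cause was not tested. In 65 further cases a difference called under neither setting changed sign, the largest of them 0.174 in size under the alternative. The number of the 8 genes called on imbibition in rdo5-1 was 1, and 2 after quantile normalization again (with SnRK2.3) and 2 with array weights (with ABF2). Leaving out 1 array gave 6 to 7 calls between siliques and dry seeds in NIL-DOG1, 4 to 5 in rdo5-1, 2 to 3 on imbibition in NIL-DOG1, 1 on imbibition in rdo5-1, and 0 between genotypes. The replicate number as a block changed no call of the 8 genes, with 6, 5, 2 and 1 genes called in the 4 stage comparisons and 0 in each of the others. Of 101 differences of genes named from the lists and of RDO5, 88 kept their call under every alternative. RD29B on imbibition in NIL-DOG1 was among those that lost their call with the block (adjusted p = 0.0654), as did the PYR1 difference between stages (adjusted p = 0.0625). How far signal over background limits dim genes such as ABF3 is not known from these values.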

Other observations

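SnRK2.6 and ABF3 lie near each other, with 5 protein-coding genes between them in the TAIR10.1 annotation, a fact looked up after their values were seen. Both fell between siliques and dry seeds in both genotypes, the rdo5-1 fall of ABF3 with the limits given above. Of the 5 genes between them, AT4G33960 fell by 2.34 in NIL-DOG1 (limma, adjusted p = 1.0e-11), while AT4G33980 rose by 2.12 (limma, adjusted p = 4.3e-10), AT4G33985 by 0.75 and EMB2758 by 0.21, and AT4G33970 was not called. On imbibition SnRK2.6 rose and AT4G33980 fell in both genotypes (-0.81 in NIL-DOG1; limma, adjusted p = 1.9e-04).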
